A study of Mus musculus with 71 samples.

Results

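Blood gene expression was compared between BPR21 mice and E07 mice in the mouse model of systemic sclerosis (SSc) induced by hypochlorous acid (HOCl). The members were chosen by their labelled group, which gave 12 BPR21 and 12 E07 mice, 24 of the 71 mice with counts. The study tested monoclonal antibodies (mAbs) against galectin-3 (Gal-3), a lectin that binds β-galactosides. It also tested TD139, a Gal-3 inhibitor given into the trachea, and no mouse label names TD139. RNA of terminal whole blood was measured by RNA sequencing. By its methods the mice of the model were female Balb/c AnNRj, aged 6 weeks at the start. HOCl mice were given 300 µL intradermally on 5 days of each of 6 weeks, and control mice received PBS. E07 is an anti-Gal-3 mAb in human IgG1 format with the LALA change of the Fc part, and E07 mice received HOCl and 20 mg/kg of E07 subcutaneously every 5 days. The labels of BPR21 mice name HOCl and BPR21. The sources used here do not give the nature of BPR21, nor its dose, route and schedule, so these may differ from those of E07. The strain, sex and age of BPR21 mice are taken from the description of the model as a whole. Blood was taken at day 42. Groups were kept in separate cages, so cage and treatment cannot be told apart. HOCl mice labelled with no treatment (12 mice, of which 11 had normalised values) and 11 control mice served as references.

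Libraries were made with poly A selection and globin depletion. The total count per mouse was 12241849 at the lowest, 14019776.5 at the median and 14933401 at the highest in BPR21 mice, against 12696749, 13954729 and 14474204 in E07 mice. Depth was therefore alike in both groups, with a difference of 0.01 on the log2 scale (two-sided permutation test, p = 0.789). All libraries held the transcripts of blood cells: the most abundant gene of the heme synthesis list was Alas2, that of the platelet list Pf4, that of the B cell list Cd79a and that of the neutrophil receptor list S100a9. Genes of the Y chromosome summed to at most 16 counts in a BPR21 mouse and 4 in an E07 mouse.

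Young red cells leave the marrow as reticulocytes, which still carry RNA for the membrane skeleton, heme synthesis and the clearance of organelles, so that their transcripts take up much of whole-blood RNA. Circulating B cells are the main carriers of MHC class II molecules in blood, which present peptides to CD4+ T cells. Platelets hold RNA inherited from megakaryocytes, and lymphocytes respond to glucocorticoids with a well-known set of transcripts.

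BPR21 mice had more RNA of red cell and platelet genes and less RNA of B cell and MHC class II genes than E07 mice. On the deposited vst values (a log2-like scale), 763 of 10508 genes differed (7.26%) by limma, which means a false discovery rate up to 0.05 together with a 1.3-fold or larger change. Of these, 598 (5.69%) were higher in BPR21 mice and 165 (1.57%) were lower, while 2806 genes had an unadjusted p under 0.05. Across all genes the median log2 fold change, BPR21 minus E07, was −0.01, and single genes ranged from −1.02 for Ighd to 1.80 for Apol11b. Of the 143 genes named here 104 differed. Some were named because they were called and others after their values were seen, so this share is set by the choice. Every value below marked as adjusted p is a Benjamini-Hochberg value of limma over all 10508 genes, unless another tool is named. Counts of list members called by limma stand beside 5.69% higher and 1.57% lower among all genes. For edgeR the counts stand beside 823 higher and 269 lower of 10503 genes, and for DESeq2 beside 998 and 299. Counts at an unadjusted p under 0.05 stand beside 2806 of 10508 genes.

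**Figure D1:**
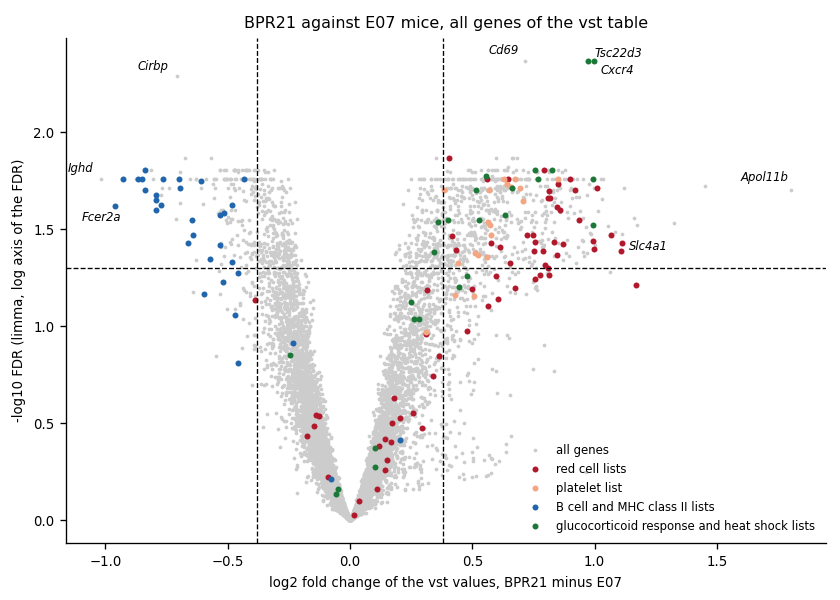
Each point is a gene of the vst table, with the log2 fold change of BPR21 minus E07 on the horizontal axis and the −log10 of limma's false discovery rate on the vertical axis, and dashed lines mark the thresholds of 0.05 and 1.3-fold. Most red cell genes and the 19 platelet genes lie to the right, and the 20 B cell genes and 11 of 12 MHC class II genes lie to the left. Tsc22d3, Cxcr4, Cd69 and Cirbp have the lowest adjusted p of the labelled genes (0.00426, 0.00426, 0.00426 and 0.00513).

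Apol11b, an apolipoprotein L gene at chr15:77518146-77527487 (GRCm39, minus strand), had the largest increase. Its vst value was 8.81 at the lowest, 11.41 at the median and 13.28 at the highest in BPR21 mice, against 8.22, 9.19 and 11.57 in E07 mice. BPR21 mice were high as a group, with 6 of 12 above every E07 mouse, while the others overlapped E07 mice. The log2 fold change was 1.80 ± 0.46 (SE; adjusted p = 0.0197), with 11 of 12 BPR21 mice above the E07 median. Ftl1-ps1, named as a pseudogene of the ferritin light chain, followed with 1.45 ± 0.37 (adjusted p = 0.0189, 12 of 12 mice), and its reads may belong to Ftl1 or to other copies. Prxl2a, a peroxiredoxin-like gene, rose by 1.18 (adjusted p = 0.0301) and Dhrs11, a short-chain dehydrogenase, by 1.11 (adjusted p = 0.0334), each in 11 of 12 mice. Leaving out 1 mouse ended the call of Prxl2a for 9 choices and of Dhrs11 for 12, with log2 fold changes that stayed at 1.02 to 1.39 and 0.96 to 1.31. Gpx1, the glutathione peroxidase that removes hydrogen peroxide in red cells and elsewhere, was among the most abundant of these genes. Its vst value ran from 15.34 through 17.02 to 18.69 in BPR21 mice and from 15.28 through 15.85 to 16.90 in E07 mice. The upper BPR21 mice stood apart, 7 of 12 above every E07 mouse, and Gpx1 rose by 1.12 ± 0.29 (adjusted p = 0.0192). None of these 5 genes was called when BPR21 mice 11 and 12 were both left out (adjusted p = 0.055 for Apol11b, 0.0596 for Ftl1-ps1, 0.0981 for Prxl2a, 0.105 for Dhrs11 and 0.0601 for Gpx1). Their log2 fold changes were then 1.64, 1.21, 0.96, 0.90 and 0.90 in the same order.

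Because Apol11b, Prxl2a, Gpx1 and Dhrs11 were the 4 called genes of largest change that have an entry in the RefSeq promoter table (GRCm38.p6), their promoters are shown, from 250 bases before to 50 bases after the start of the gene, 5′ to 3′ on the strand of the gene. A motif match stands in capitals. Prxl2a has 5 entries, of which the first is shown. Positions in GRCm38.p6 are chr15:77643237-77643536 (minus strand) for Apol11b, chr14:41013784-41014083 (minus strand) for Prxl2a, chr9:108338830-108339129 (plus strand) for Gpx1 and chr11:84828954-84829253 (minus strand) for Dhrs11.
Apol11b: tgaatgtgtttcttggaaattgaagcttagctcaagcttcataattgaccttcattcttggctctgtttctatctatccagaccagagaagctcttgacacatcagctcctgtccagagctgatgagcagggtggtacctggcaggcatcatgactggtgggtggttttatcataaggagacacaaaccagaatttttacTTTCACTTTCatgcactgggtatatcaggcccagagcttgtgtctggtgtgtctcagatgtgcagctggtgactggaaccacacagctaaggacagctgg
Prxl2a: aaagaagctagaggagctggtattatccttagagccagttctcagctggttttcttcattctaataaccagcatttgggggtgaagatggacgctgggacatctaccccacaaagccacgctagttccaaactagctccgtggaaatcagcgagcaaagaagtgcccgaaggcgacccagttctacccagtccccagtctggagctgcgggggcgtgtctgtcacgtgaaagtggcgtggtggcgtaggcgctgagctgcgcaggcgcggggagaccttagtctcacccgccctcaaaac
Gpx1: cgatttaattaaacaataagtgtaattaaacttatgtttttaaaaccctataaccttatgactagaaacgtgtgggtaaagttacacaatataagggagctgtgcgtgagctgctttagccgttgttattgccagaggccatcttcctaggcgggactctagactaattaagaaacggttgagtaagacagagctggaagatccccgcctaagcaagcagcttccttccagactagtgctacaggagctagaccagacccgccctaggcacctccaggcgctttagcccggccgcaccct
Dhrs11: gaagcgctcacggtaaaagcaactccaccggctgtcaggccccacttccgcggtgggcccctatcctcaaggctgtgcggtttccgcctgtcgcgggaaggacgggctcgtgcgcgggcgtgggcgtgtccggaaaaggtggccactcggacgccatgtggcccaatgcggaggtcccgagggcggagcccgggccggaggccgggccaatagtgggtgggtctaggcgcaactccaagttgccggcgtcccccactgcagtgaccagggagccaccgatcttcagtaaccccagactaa
Both strands were searched for 4 motifs, whose shares refer to the 32851 promoters of the table. AGATAA, bound by factors of the GATA family, occurs in 11.2% of them, and CACACCC, bound by the erythroid factor KLF1, in 7.95%. The interferon-stimulated response element, 2 copies of GAAA with 2 bases of any kind between them, occurs in 3.44%. The site of AP-1 and of NF-E2, which reads TGACTCA, occurs in 5.20%. The interferon-stimulated response element matched in 1 place of the Apol11b promoter, on the opposite strand, where it reads TTTCACTTTC from base 201, and the other 3 promoters held 0 matches. A match describes these letters only. Promoters were found for 104 of the 143 named genes.

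The lists of reticulocyte maturation and of the red cell membrane had the most positive medians of the 41 lists. Those of heme synthesis (0.20), iron (0.18) and glycolysis and redox (0.17) lay below that of platelet genes (0.57). Of 20 genes of the red cell membrane and surface, 11 were higher in BPR21 mice and 0 were lower, with a median log2 fold change of 0.75 beside −0.01 for all genes, and 17 of the 20 had an unadjusted p under 0.05. For genes lower in BPR21 mice, edgeR and DESeq2 also gave 0 in this list. Slc4a1 (chr11:102239650-102257029) encodes band 3, the anion exchanger that anchors the membrane skeleton. Its vst value was 11.47 at the lowest, 13.89 at the median and 15.19 at the highest in BPR21 mice, against 11.41, 12.20 and 13.79 in E07 mice. The groups shared their lower end and parted at the upper end, where 7 of 12 BPR21 mice exceeded every E07 mouse. The log2 fold change was 1.11 ± 0.34 (adjusted p = 0.0371, 11 of 12 mice above the E07 median). Epb42, the membrane skeleton protein 4.2, ran from 8.37 through 10.69 to 12.09 in BPR21 mice and from 8.78 through 9.38 to 10.32 in E07 mice. Thus the lowest of these 24 mice was also a BPR21 mouse, while 7 of 12 lay above every E07 mouse, for a rise of 1.07 ± 0.32 (adjusted p = 0.034). Sptb (β-spectrin) rose by 1.00 as well. These 3 calls lay near the threshold: leaving out 1 mouse ended that of Slc4a1 and of Epb42 for 12 choices of the mouse and of Sptb for 14. Their adjusted p then reached at most 0.0671, 0.0618 and 0.0734, and their log2 fold changes stayed at 0.97 to 1.31, 0.93 to 1.27 and 0.87 to 1.14. Without BPR21 mice 11 and 12 together 0 of the 20 genes were called, with a median of 0.60. That fit called 149 higher and 56 lower among all 10508 genes. List counts given below without these mice stand beside those numbers.

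Reticulocyte maturation genes moved in the same direction, with 11 of 19 higher in BPR21 mice, 0 lower by limma, edgeR or DESeq2, and a median of 0.81 (18 genes at an unadjusted p under 0.05). Rnf10, a ubiquitin ligase that acts on stalled ribosomes, had vst values of 14.28, 15.62 and 16.98 (lowest, median, highest) in BPR21 mice and of 13.88, 14.41 and 15.64 in E07 mice. Most BPR21 mice lay in the upper part of the E07 range or beyond it, 5 of 12 above every E07 mouse, and Rnf10 rose by 1.01 ± 0.26 (adjusted p = 0.0192). Bpgm, which makes 2,3-bisphosphoglycerate, rose by 0.94, Mkrn1, a ubiquitin ligase, by 0.92, and Bnip3l, the receptor for clearance of mitochondria in reticulocytes, by 0.86 (adjusted p = 0.0284, 0.0199 and 0.0251). Trim10 had a larger difference, 1.17, but did not pass (adjusted p = 0.0614). Without BPR21 mice 11 and 12 together, 0 of the 19 genes were called and the median was 0.64.

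Of 13 heme synthesis genes, 5 were higher and 0 lower in BPR21 mice (edgeR and DESeq2: 5 higher, 0 lower; 5 at an unadjusted p under 0.05), with a median of 0.20. Alas2, the erythroid first enzyme of heme synthesis (chrX:149330371-149353634), was the most abundant. Its vst value was 18.84 at the lowest, 19.68 at the median and 20.99 at the highest in BPR21 mice, against 18.27, 18.98 and 19.70 in E07 mice. All BPR21 mice lay above the lowest E07 mice, and 5 of 12 exceeded every E07 mouse, for a rise of 0.85 ± 0.21 (adjusted p = 0.0185, 11 of 12 mice above the E07 median). Slc25a39, the mitochondrial carrier of glutathione, rose by 0.90 and Urod, which decarboxylates uroporphyrinogen, by 0.81. Among 12 iron genes, 4 were higher and 0 lower (limma, edgeR and DESeq2 alike; 5 at an unadjusted p under 0.05). These were Ncoa4, the receptor for ferritin breakdown (0.83), Ftl1 and Fth1, the ferritin chains (0.71 and 0.70), and Snx3, which recycles the transferrin receptor (0.65). Fth1 exceeded every E07 mouse in 9 of 12 BPR21 mice. Of 15 erythroid transcription factor genes, 7 were higher and 0 lower (8 higher and 0 lower by edgeR and by DESeq2; 9 at an unadjusted p under 0.05), with a median of 0.41. Gata1, the master regulator of the red cell and megakaryocyte lineages, ran from 9.17 through 9.98 to 11.03 in BPR21 mice and from 8.73 through 9.21 to 9.55 in E07 mice. Its groups overlapped little, with 8 of 12 BPR21 mice above every E07 mouse, and it rose by 0.79 ± 0.17 (adjusted p = 0.0156). Tal1 rose by 0.65, E2f2 by 0.80 and Nfe2 by 0.58.

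Beyond these, 6 of 23 glycolysis and redox genes of red cells were higher and 0 lower (edgeR 6 and 0; DESeq2 7 and 0; 11 at an unadjusted p under 0.05), with a median of 0.17. Prdx2, the main peroxiredoxin of red cells, rose by 1.03, Car2, carbonic anhydrase 2, by 1.08 and Nt5c3, a pyrimidine nucleotidase of reticulocytes, by 0.87. In the autophagy list 10 of 24 genes were higher and 0 lower (edgeR 10 and 0; DESeq2 11 and 0; 12 at an unadjusted p under 0.05), led by Gabarapl2 (0.91), Bnip3l (0.86), Map1lc3b (0.85) and Becn1 (0.72). Ube2c and Ccna2, genes of mitosis, rose by 0.95 and 0.55, the only called genes of 15 in the proliferation list. Of these lists limma called 3 autophagy genes, 1 heme synthesis gene, 2 iron genes, 3 erythroid transcription factor genes and 0 genes of the glycolysis and redox and of the proliferation list without BPR21 mice 11 and 12 together. The summed share of the total count held by 4 red cell lists (membrane, heme synthesis, transcription factors and maturation) was 10.2% at the lowest, 15.9% at the median and 20.7% at the highest in BPR21 mice, against 8.63%, 11.6% and 16.1% in E07 mice. Several BPR21 mice stood above all E07 mice, while the lowest of them lay inside the E07 range. Globin transcripts, a share added after the data were seen, held 0.0729%, 0.143% and 2.02% of counts in BPR21 mice and 0.0662%, 0.177% and 0.878% in E07 mice, with the highest share in BPR21 mouse 5. In bulk blood, more cells of a type and more RNA per cell cannot be told apart, nor can fewer cells and less RNA per cell.

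Most platelet genes were called. Of 19 genes, 16 were higher in BPR21 mice and 0 lower (edgeR 16 and 0; DESeq2 18 and 0), all 19 had an unadjusted p under 0.05, and the median log2 fold change was 0.57. Pf4, the chemokine platelet factor 4 of alpha granules (chr5:90918479-90922110), had vst values of 14.22, 14.77 and 15.97 (lowest, median, highest) in BPR21 mice and of 13.69, 14.17 and 14.56 in E07 mice. Every BPR21 mouse lay above the E07 median and 8 of 12 above every E07 mouse, for a rise of 0.67 ± 0.16 (adjusted p = 0.0173). Rgs18, a regulator of G protein signalling in platelets, ran from 12.64 through 13.57 to 14.82 in BPR21 mice and from 12.37 through 12.67 to 13.34 in E07 mice. It stood above every E07 mouse in 7 of 12 BPR21 mice and rose by 0.85 ± 0.20 (adjusted p = 0.0173). Tubb1, the β-tubulin of platelets, rose by 0.71 and Clec1b, the receptor CLEC-2, by 0.69. On counts scaled to a fixed library size (CPM of the total count), the median of all genes was −0.41 and Rgs18 was at 0.44 (adjusted p = 0.0229). There Pf4 was at 0.25 (adjusted p = 0.0682), Tubb1 at 0.32 (0.0876) and Clec1b at 0.28 (0.0775), and these did not pass. As a share of the total count the list held 0.586%, 0.704% and 1.04% in BPR21 mice and 0.499%, 0.652% and 0.775% in E07 mice. The shares overlapped widely, with 4 of 12 BPR21 mice above every E07 mouse. Without BPR21 mice 11 and 12 together, 6 of the 19 genes were called and the median was 0.38. In the hematopoietic progenitor list 2 of 5 genes were higher, among them Angpt1, a ligand of Tie2 (0.65).

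B cell genes moved the other way. Of 20 B cell genes, 14 were lower in BPR21 mice and 0 higher (edgeR 9 and 0; DESeq2 12 and 0), all 20 had an unadjusted p under 0.05, and the median log2 fold change was −0.55. Fcer2a, the low-affinity IgE receptor CD23 of mature B cells (chr8:3731737-3744183), had vst values of 8.62, 10.66 and 11.21 (lowest, median, highest) in BPR21 mice and of 10.65, 11.21 and 11.65 in E07 mice. All 12 BPR21 mice lay below the E07 median and 6 of them below every E07 mouse, with a log2 fold change of −0.96 ± 0.26 (adjusted p = 0.0238). Fcer2a was not called by edgeR (−0.81, adjusted p = 0.056) and lay at the limit with DESeq2 (−0.79, 0.0499). Cd79b, a signalling chain of the B cell receptor, ran from 10.17 through 11.70 to 12.49 in BPR21 mice and from 11.93 through 12.45 to 12.81 in E07 mice. The lower BPR21 mice had no counterpart among E07 mice, 7 of 12 lying below all of them, and Cd79b fell by 0.84 ± 0.22 (adjusted p = 0.0199). Cd22, an inhibitory receptor, fell by 0.79. Ms4a1, which encodes CD20, was not called (−0.60, adjusted p = 0.0683). Without BPR21 mice 11 and 12 together, 0 of the 20 genes were called by limma and the median was −0.38. The B cell list held 0.0467%, 0.155% and 0.367% of the total count in BPR21 mice, against 0.221%, 0.353% and 0.460% in E07 mice. Shares in 8 of 12 BPR21 mice lay below every E07 mouse, and the lowest were 0.0467% in mouse 12 and 0.0501% in mouse 11.

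Among immunoglobulin and plasma cell genes, 4 of 18 were lower and 0 higher (the same by edgeR and DESeq2; 8 at an unadjusted p under 0.05), with a median of −0.26. Ighd, the heavy chain of IgD carried by naive B cells (chr12:113370224-113379944), had the largest decrease of all genes. Its vst value was 10.17 at the lowest, 11.78 at the median and 12.57 at the highest in BPR21 mice, against 12.15, 12.66 and 13.12 in E07 mice. All 12 BPR21 mice lay below the E07 median and 7 below every E07 mouse, for a log2 fold change of −1.02 ± 0.24 (adjusted p = 0.0173). The light chain genes Iglc3 and Iglc2 fell by 0.77 and 0.74 and the heavy chain gene Ighg3 fell by 0.55, but reads of immunoglobulin genes can be shared between near-identical copies. Il4i1, an amino acid oxidase induced by interleukin-4, fell by 0.81 and Cd40, a costimulatory receptor of B cells, fell by 0.80.

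MHC class II genes had 10 of 12 members lower in BPR21 mice and 0 higher (edgeR 9 and 0; DESeq2 10 and 0; 10 at an unadjusted p under 0.05), with a median of −0.73. H2-Ab1, the β chain of I-A (chr17:34476663-34488393), had vst values of 10.67, 12.17 and 12.64 (lowest, median, highest) in BPR21 mice and of 12.45, 12.80 and 13.08 in E07 mice. The ranges overlapped only in a narrow band, with 12 of 12 BPR21 mice below the E07 median and 7 below every E07 mouse, and H2-Ab1 fell by 0.93 ± 0.21 (adjusted p = 0.0173). H2-Ea fell by 0.87, H2-Aa fell by 0.86 and H2-Eb1 fell by 0.85, chains of I-E and I-A whose paralogs can share reads. H2-Oa, a chain of the peptide-loading modulator H2-O, fell by 0.84, Cd74, the invariant chain, fell by 0.79 and Ciita, the transactivator of the class, fell by 0.70. The members not called were the costimulatory genes Cd80 (0.20) and Cd86 (−0.08). This list held 0.0569%, 0.211% and 0.473% of counts in BPR21 mice and 0.351%, 0.493% and 0.706% in E07 mice, with Cd74 the most abundant gene, and 9 of 12 BPR21 mice lay below every E07 mouse. Without BPR21 mice 11 and 12 together 7 of the 12 genes were called lower and the median was −0.54. MHC class I genes gave 0 calls of 17 with limma, edgeR and DESeq2, 5 with an unadjusted p under 0.05 and a median of −0.06.

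**Figure D2:**
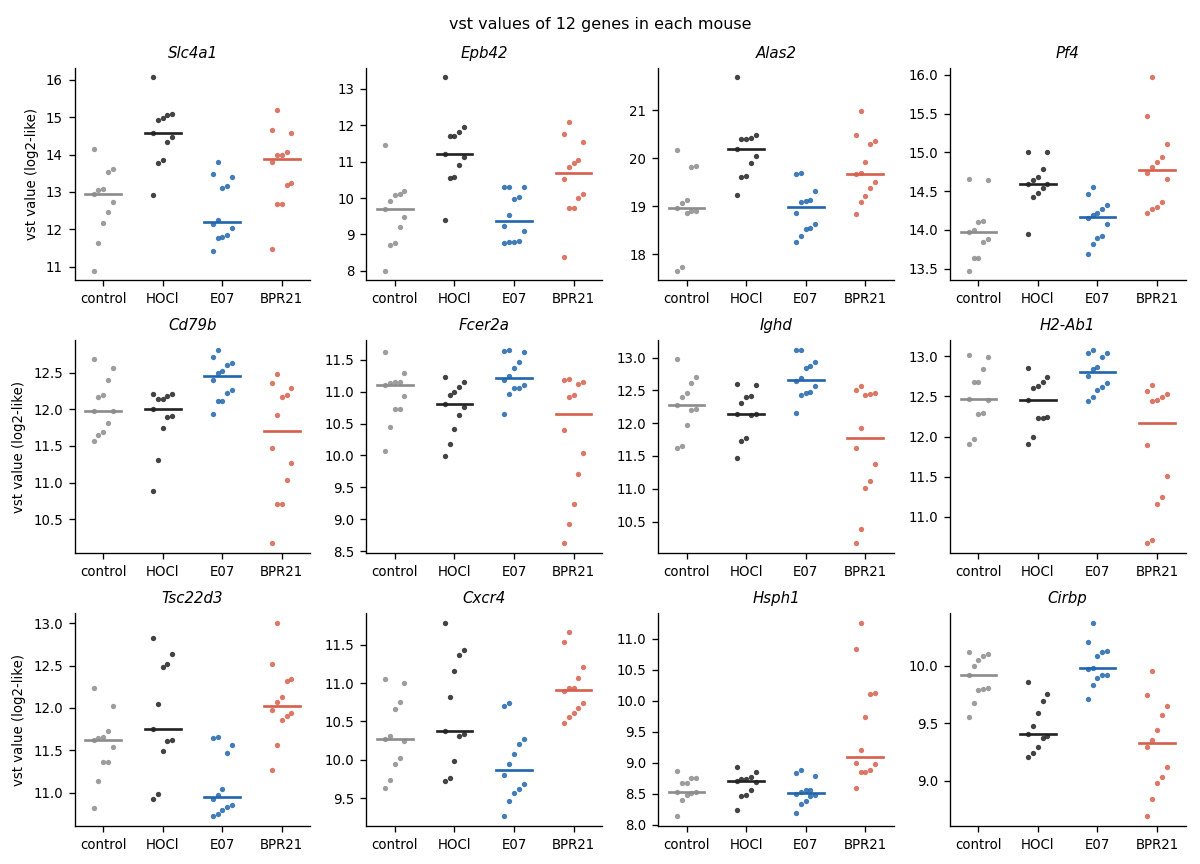
Each point is the vst value (vertical axis, log2-like) of a gene in a mouse, for control, HOCl, E07 and BPR21 mice, and the bar is the median; sideways offsets only separate points. BPR21 mice reach above E07 mice for Slc4a1, Epb42, Alas2, Pf4, Tsc22d3, Cxcr4 and Hsph1 (median of Slc4a1 13.89 against 12.20), and below them for Cd79b, Fcer2a, Ighd, H2-Ab1 and Cirbp (median of H2-Ab1 12.17 against 12.80).

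Of 22 T cell genes, 1 was higher and 0 lower, beside 5.69% and 1.57% of all genes (edgeR and DESeq2 the same; 6 at an unadjusted p under 0.05), with a median of 0.09. The called gene was Il7r, the interleukin-7 receptor, at 11.25, 11.61 and 12.11 (lowest, median, highest) in BPR21 mice and 10.71, 11.16 and 11.58 in E07 mice. All 12 BPR21 mice lay above the E07 median, and the log2 fold change was 0.46 ± 0.10 (adjusted p = 0.0173). On CPM of the total count Il7r was at 0.06 (adjusted p = 0.749) and the median of the list at −0.32. Cd28, a costimulatory receptor, and Lat, an adaptor of T cell receptor signalling, stood at 0.31 (adjusted p = 0.0379) and 0.25 (adjusted p = 0.0537), both under the fold threshold and not called. The T cell list held 0.347% of counts at the median in BPR21 mice and 0.434% in E07 mice, a lower share despite the positive vst median. Regulatory T cell genes gave 0 calls of 6 with limma, edgeR and DESeq2 and 0 at an unadjusted p under 0.05. Of 16 NK and cytotoxic genes 3 were lower and 0 higher by limma (edgeR 3 and 0; DESeq2 3 and 1; 9 at an unadjusted p under 0.05), namely Ncr1, the NK receptor NKp46 (−0.49), Ccl5, a chemokine (−0.46), and Gzma, granzyme A (−0.43). Of the 16 genes 14 were negative, and the median was −0.25 (−0.73 on CPM). Ccl5 lay below every E07 mouse in 9 of 12 BPR21 mice.

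Calls in the myeloid lists were mostly lower with limma, beside a share of 1.57% lower among all genes. In the monocyte list 4 of 20 genes were lower, 0 were higher by limma (edgeR 1, DESeq2 2) and 10 had an unadjusted p under 0.05, with a median of −0.23. These were the chemokine receptors Ccr2 (−0.63) and Cx3cr1 (−0.51), the transcription factor Irf5 (−0.49) and the surface antigen Ly6c2 (−0.38). Ccr2 was called by neither edgeR (adjusted p = 0.075) nor DESeq2 (0.0537), and Cx3cr1 not by edgeR (0.056). Leaving out 1 mouse ended the limma call of Ccr2 for 17 choices, of Cx3cr1 for 13 and of Ly6c2 for 15, and only Irf5 kept it without BPR21 mice 11 and 12 together. Irf5 ran from 8.71 through 9.70 to 9.99 in BPR21 mice and from 9.82 through 10.05 to 10.30 in E07 mice, with 8 of 12 BPR21 mice below every E07 mouse (adjusted p = 0.0175). Eosinophil genes were negative in 7 of 7, and 2 were called lower, Ccr3, the eotaxin receptor (−0.71), and Il5ra, the interleukin-5 receptor (−0.51). Both edgeR and DESeq2 called only Ccr3, leaving out 1 mouse ended the limma call of Il5ra for 16 choices of that mouse, and 0 of the 7 genes were called without BPR21 mice 11 and 12 together. That list held 0.00822% of counts at the median in BPR21 mice and 0.0147% in E07 mice. Neutrophil maturity genes gave 0 calls of 18 with limma, 5 with edgeR and 4 with DESeq2, all higher, and 4 had an unadjusted p under 0.05. Their share was 0.278%, 0.514% and 2.29% of counts (lowest, median, highest) in BPR21 mice and 0.530%, 0.675% and 0.993% in E07 mice. BPR21 mice thus spread to both sides of E07 mice, with 2 above and 7 below all of them, and mouse 7 held the highest share. With limma, Il1r2, a decoy receptor of interleukin-1, stood at 0.84 (adjusted p = 0.17), Mxd1 at 0.64 (adjusted p = 0.11) and Hdc, histidine decarboxylase, at 0.60 (adjusted p = 0.222), and none passed. The count tools gave other values, for Il1r2 2.33 with edgeR (adjusted p = 0.0133) and 0.35 with DESeq2 (0.273), for Mxd1 1.05 (0.0271) and 1.10 (0.0134), and for Hdc 1.29 (0.037) and 0.58 (0.174). Of the neutrophil granule precursors limma called 1 of 10 lower and 0 higher (edgeR 1 and 2; DESeq2 1 and 0; 4 at an unadjusted p under 0.05), Cebpe, a factor of granule formation (−0.44), while Ngp (−0.47, adjusted p = 0.0814) and Mmp8 (0.47, adjusted p = 0.498) were not called by limma. Mmp8 was called higher by edgeR (1.62, adjusted p = 0.0476) and stood at −0.22 with DESeq2 (0.441). Ms4a3 had 0 counts in all 24 mice, and Mpo, Elane, Fcnb and Ctsg stayed under 1 CPM, the count scaled to a fixed library size. Basophil and mast cell genes gave 0 calls of 9 with limma and 1 with edgeR and with DESeq2, with 1 at an unadjusted p under 0.05. The largest difference was 0.33 for Gata2 (adjusted p = 0.0457), under the fold threshold with limma and called by edgeR (0.50) and DESeq2 (0.53). Of 8 dendritic cell genes 1 was lower, Irf8 (−0.46, adjusted p = 0.0288), a factor that B cells and monocytes also use.

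Tsc22d3 and Cxcr4, which glucocorticoids induce, shared the lowest adjusted p of all genes with Cd69, which is not in the glucocorticoid list. In that list 6 of 11 genes were higher and 0 lower (edgeR 8 and 0; DESeq2 8 and 0; 8 at an unadjusted p under 0.05), with a median of 0.48. Tsc22d3, which encodes the leucine zipper protein GILZ (chrX:139440091-139501408), had vst values of 11.27, 12.02 and 13.004 (lowest, median, highest) in BPR21 mice and of 10.72, 10.95 and 11.66 in E07 mice. The groups were nearly separate, with 10 of 12 BPR21 mice above every E07 mouse, and Tsc22d3 rose by 0.97 ± 0.16 (adjusted p = 0.00426, 12 of 12 mice above the E07 median). Cxcr4, the receptor that holds leukocytes in the marrow (chr1:128515936-128520044), ran from 10.47 through 10.92 to 11.66 in BPR21 mice and from 9.26 through 9.87 to 10.74 in E07 mice. Again 12 of 12 BPR21 mice lay above the E07 median, 7 above every E07 mouse, for a rise of 1.00 ± 0.16 (adjusted p = 0.00426). Ddit4, an inhibitor of mTOR, rose by 0.75 ± 0.15 (adjusted p = 0.0156) and exceeded every E07 mouse in 10 of 12 BPR21 mice. Dusp1, a MAP kinase phosphatase, rose by 0.99, Tsc22d1 by 0.66 and the clock gene Per1 by 0.40, while Fkbp5, another common target, did not pass (0.48, adjusted p = 0.0552). Tsc22d3, Cxcr4 and Ddit4 kept their calls whichever mouse was left out and also without BPR21 mice 11 and 12 together (0.90, 0.93 and 0.68). Glucocorticoid levels were not measured.

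Heat shock genes were also higher, 7 of 14, with 0 lower (edgeR 9 and 0; DESeq2 10 and 0; 13 at an unadjusted p under 0.05) and a median of 0.48. Hsph1, a large chaperone of the HSP110 family, had vst values of 8.59, 9.10 and 11.26 (lowest, median, highest) in BPR21 mice and of 8.19, 8.51 and 8.89 in E07 mice. Most BPR21 mice lay above the narrow E07 range, 8 of 12 above every E07 mouse, and Hsph1 rose by 0.99 ± 0.23 (adjusted p = 0.0173). Its cochaperones Dnajb1 and Dnaja1 rose by 0.83 and 0.77 and Hsp90aa1 by 0.63, each with 12 of 12 BPR21 mice above the E07 median. Cirbp and Rbm3, both induced by mild cold, were chosen with Cd69 after their values were seen. Cirbp ran from 8.69 through 9.32 to 9.95 in BPR21 mice and from 9.71 through 9.98 to 10.37 in E07 mice. It was low in BPR21 mice, 10 of 12 below every E07 mouse, and fell by 0.71 ± 0.12 (adjusted p = 0.00513), whereas Rbm3 did not pass (−0.26, adjusted p = 0.101). Cd69, an early activation antigen of lymphocytes, rose by 0.72 ± 0.12 (adjusted p = 0.00426, 12 of 12 mice). Without BPR21 mice 11 and 12 together, 5 of the 14 heat shock genes were called, Cirbp was at −0.60 and Cd69 at 0.67.

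Among immediate early genes 4 of 18 were higher, 0 were lower by limma (edgeR 1, DESeq2 1) and 7 had an unadjusted p under 0.05. They were Dusp1 (0.99), the transcription factors Fos (0.85) and Jund (0.41), and Klf6 (0.43). Fos ran from 7.79 through 8.58 to 10.15 in BPR21 mice and from 6.76 through 7.66 to 8.61 in E07 mice, with 12 of 12 BPR21 mice above the E07 median. In the endoplasmic reticulum stress list Ppp1r15a (0.74), which restarts translation, and Atf4 (0.45), a stress transcription factor, were the called genes of 20. In the NRF2 and oxidative stress list 4 of 19 were higher, Gclm, a subunit of glutathione synthesis (0.81), Sod2, the mitochondrial superoxide dismutase (0.61), Srxn1, sulfiredoxin (0.53), and Sqstm1, the autophagy receptor p62 (0.51). Cybb, the catalytic subunit of the phagocyte NADPH oxidase, was lower (−0.49, adjusted p = 0.0368).

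In the mitochondrially encoded list, of 13 genes 5 were higher and 0 lower (edgeR 4 and 0; DESeq2 6 and 0; 9 at an unadjusted p under 0.05), and these 5 were the genes of the ATP synthase, mt-Atp6 (1.33) and mt-Atp8 (0.48), and of cytochrome oxidase, mt-Co2 (1.16), mt-Co3 (1.05) and mt-Co1 (0.43). In mt-Atp6 the vst value was 7.98 at the lowest, 10.27 at the median and 11.18 at the highest in BPR21 mice, against 7.79, 8.18 and 10.34 in E07 mice. Both groups spread widely and overlapped, with 10 of 12 BPR21 mice above the E07 median (1.33 ± 0.38, adjusted p = 0.0292). On the counts mt-Atp8 had a larger difference, 1.34 with edgeR, which did not call it (adjusted p = 0.0510), and 1.38 with DESeq2 (0.0150). Of the 8 genes not called, mt-Nd3 (0.31), mt-Nd4l (0.29), mt-Cytb (0.21), mt-Nd4 (0.20), mt-Nd6 (0.18) and mt-Nd5 (0.04) were positive, while mt-Nd1 and mt-Nd2 were at −0.02 each. Limma called 0 of the 13 genes without BPR21 mice 11 and 12 together, with a median of 0.26. As a share of the total count this list was lower in BPR21 mice, 1.99% at the median against 2.18% in E07 mice. Here 5 of 12 BPR21 mice lay below every E07 mouse and 0 above. Of 80 nuclear genes of oxidative phosphorylation 5 were higher and 0 lower, beside 5.69% and 1.57% of all genes (edgeR 11 and 0, DESeq2 16 and 0). The share called higher was thus near that of all genes, the median was 0.03 and 36 of the 80 genes were negative. At an unadjusted p under 0.05 there were 31 genes. Those called included Cox6c (0.66), Atp5b (0.60), Cox7a2 (0.53) and Atp5mpl (0.51). Of 78 ribosomal protein genes, Rpl41 was called (0.54, adjusted p = 0.0481), and Rps29 (0.38, adjusted p = 0.0261) was just under the fold threshold with limma and called by edgeR (0.38) and DESeq2 (0.41). Of 31 proteasome genes, Psmd4, a ubiquitin receptor, was higher (0.64), while Psmb7 (−0.26) and Psmb3 (−0.25) were not called.

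Galectins included Lgals3, the gene of the antibody target. The vst value of Lgals3 was 9.94 at the lowest, 10.48 at the median and 11.23 at the highest in BPR21 mice, against 10.43, 10.90 and 11.38 in E07 mice. Values overlapped, with 9 of 12 BPR21 mice below the E07 median, and the difference did not pass (−0.32 ± 0.14, adjusted p = 0.127). Lgals1 ran from 9.60 through 9.92 to 10.06 in BPR21 mice and from 9.97 through 10.21 to 10.71 in E07 mice, and its difference of −0.38 passed the false discovery rate (adjusted p = 0.0156) but lay just under the fold threshold with limma. It was called lower by edgeR (−0.46, adjusted p = 0.0107) and DESeq2 (−0.43, 0.000706). Lgals3 passed with neither edgeR (−0.35, adjusted p = 0.125) nor DESeq2 (−0.32, 0.15). On CPM of the total count, where the median of all genes was −0.41, it stood at −0.76 (adjusted p = 0.00847). Lgalsl, a galectin-like gene, rose by 0.46 (adjusted p = 0.0203), the gene of 7 that limma called on the vst scale. On CPM of the total count Lgalsl stood at 0.15 (adjusted p = 0.400). In the Fc and complement receptor list Cd59a, which blocks the membrane attack complex on red cells, rose by 0.88, while Cr2, a complement receptor of B cells, fell by 0.51 and Fcgr1, the high-affinity IgG receptor, fell by 0.50, 3 of 16 genes, of which only Fcgr1 was called without BPR21 mice 11 and 12 together. Among chemokine receptors, which share Cxcr4, Ccr2, Ccr3 and Cx3cr1 with other lists, 1 of 16 was higher and 3 were lower.

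Interferon calls depended on the tool. Of 28 type I interferon genes 1 was higher and 0 lower by limma (edgeR 3 and 2; DESeq2 6 and 2; 12 at an unadjusted p under 0.05), Ifit2 (0.46, adjusted p = 0.0416), beside 5.69% higher among all genes. Isg15 ran from 10.49 through 12.35 to 14.00 in BPR21 mice and from 10.98 through 11.36 to 12.25 in E07 mice. BPR21 mice reached beyond E07 mice at both ends, with 7 above and 1 below all of them, and the difference of 0.81 did not pass with limma (adjusted p = 0.0528), nor did that of Irf7 (0.75, adjusted p = 0.0592). On the counts both passed, Isg15 with edgeR (1.04, adjusted p = 0.0177) and DESeq2 (1.07, 0.0108) and Irf7 with edgeR (0.93, 0.0222) and DESeq2 (0.97, 0.0184). Of 14 interferon gamma genes Igtp, a GTPase, was higher (0.50, adjusted p = 0.0209), and the list median was 0.16. The list of inflammasome, Toll-like receptor and cytokine genes gave 0 calls of 22 with limma, 0 with edgeR, 2 with DESeq2 (1 higher, 1 lower) and 5 at an unadjusted p under 0.05, with Nlrp3 at 0.40 (adjusted p = 0.209; called by DESeq2, 0.94) and Il1b at 0.38 (adjusted p = 0.326). TGF-β and Smad genes gave 0 calls of 18 with limma, edgeR and DESeq2 and 2 at an unadjusted p under 0.05, with Ski at 0.26 and Smurf2 at 0.24. In the clock list Per1 was the called gene of 11. In the list of genes of other tissues 1 of 5 was higher, while Alb, the liver gene of albumin, did not pass (0.96, adjusted p = 0.564). Alb was high in BPR21 mice 7 (11.75), 10 (12.34), 11 (12.79) and 12 (12.70) and in E07 mice 5 (13.04), 9 (10.65) and 10 (10.13), and without BPR21 mice 11 and 12 together its difference was 0.10.

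**Figure D3:**
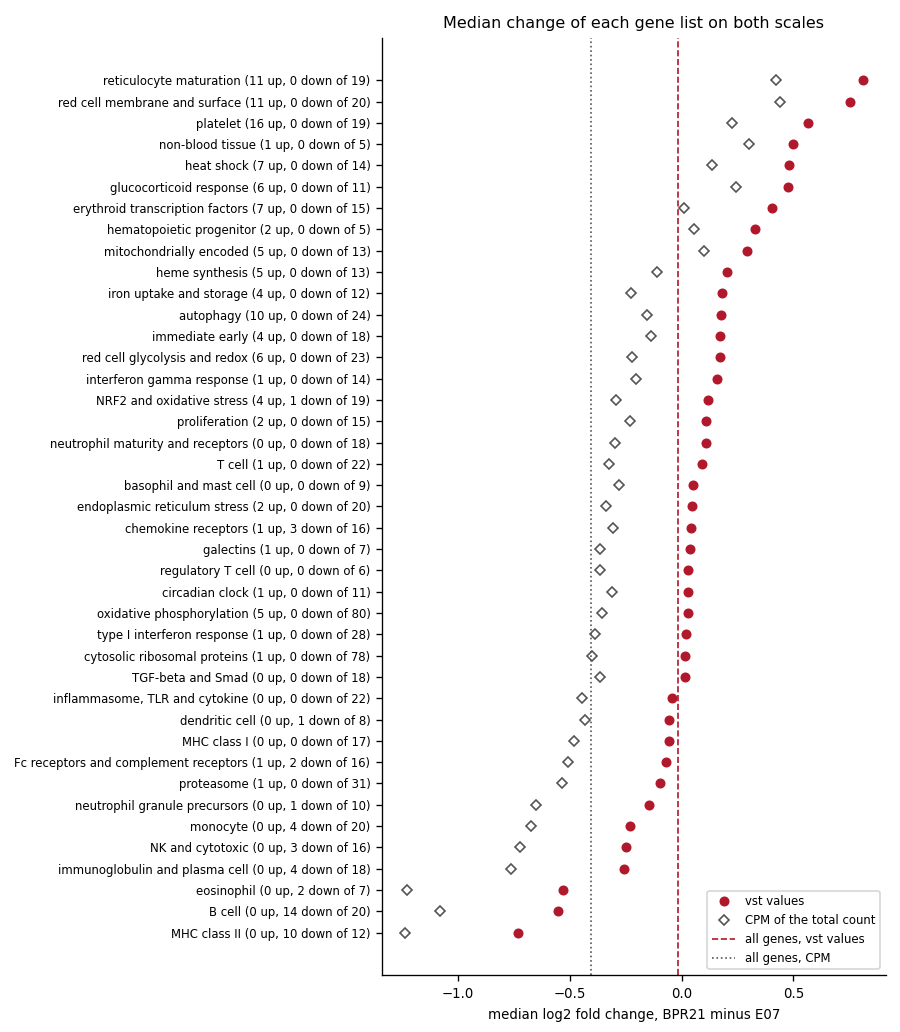
Each line is a gene list with its number of genes called higher and lower. Filled points give the median log2 fold change of BPR21 minus E07 on the vst scale, and open diamonds give it on CPM of the total count, with dashed and dotted lines at the medians of all genes (−0.01 and −0.41). Reticulocyte maturation (0.81) and red cell membrane (0.75) lie at the upper end and MHC class II (−0.73) and B cell (−0.55) at the lower end on the vst scale, and the CPM medians lie lower throughout.

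The size factor is the number by which DESeq2 divides the counts before the transformation. It was estimated here from the counts of the vst genes in all mice, so it may differ from that behind the deposited values. In BPR21 mice it was 0.585 at the lowest, 0.982 at the median and 1.46 at the highest (mean 0.980 ± 0.231, SD). In E07 mice the size factor was 1.01, 1.28 and 1.55 (1.28 ± 0.176). It was low in BPR21 mice, 11 of 12 below the E07 median, with a difference of −0.42 in log2 (two-sided permutation test, p = 0.00122), although total counts were alike. On CPM of the total count the median of all genes moved to −0.41 and 4813 genes were called, 3.16% of them higher in BPR21 mice, against 78.4% on the vst scale and 63.4% on CPM with TMM factors. The list medians of heme synthesis, iron, glycolysis and redox, proliferation, neutrophil maturity, basophil, T cell, regulatory T cell, both interferon lists, galectins, NRF2, endoplasmic reticulum stress, ribosomal, oxidative phosphorylation, autophagy, immediate early, clock, TGF-β and chemokine receptor genes turned negative on this scale, and none of the 41 list medians changed sign once the median of all genes was subtracted. Red cell membrane (0.44), reticulocyte maturation (0.42), platelet (0.22), heat shock (0.14) and glucocorticoid response (0.24) medians were positive on both scales, and B cell (−1.08) and MHC class II (−1.24) medians were negative on both.

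Covariates ended the calls. With a score of the red cell lists as a covariate, limma called 0 genes (938 with unadjusted p below 0.05), and 745 of the 763 genes had the same sign. With the log2 size factor as a covariate 0 genes were called (630 with unadjusted p below 0.05; 626 with the same sign), and with a score of the B cell list, a covariate chosen after seeing the data, 0 (860; 756 with the same sign). Other tools were not run with these covariates. With the red cell score as a covariate, list medians were 0.01 for red cell membrane, 0.07 for reticulocyte maturation, 0.24 for platelet, −0.36 for B cell, −0.51 for MHC class II, 0.26 for heat shock and 0.43 for glucocorticoid response. This score is built from 67 genes of the red cell lists, so red cell medians near 0 follow from its construction. With the size factor as a covariate the same medians were −0.05, −0.02, 0.17, −0.28, −0.38, 0.27 and 0.42, and that of heme synthesis was −0.07, so that these 3 red cell medians were negative. With the B cell score the 7 medians were 0.42, 0.46, 0.14, −0.02, −0.14, 0.25 and 0.18, where the B cell value of −0.02 likewise follows from the construction of the score. Tsc22d3 was, with the red cell score, at 0.96 and Cxcr4 at 0.94 (adjusted p = 0.103 for each). The part of cell composition or scaling in the differences was not tested.

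BPR21 mice differed more among themselves than E07 mice did. The distance of a mouse from the mean of the 11 others of its group, over all vst genes, was 27.5 at the lowest, 32.5 at the median and 56.5 at the highest in BPR21 mice, against 19.6, 22.1 and 32.0 in E07 mice. All 12 BPR21 mice lay above the E07 median, and the means differed by 11.8 (two-sided permutation test, p = 0.0003). Mice 11 and 12 stood farthest from their group, at 52.8 and 56.5, and had size factors of 0.801 and 0.585. Without both, a choice made after seeing the data, the distance still differed by 7.26 (p = 0.0055), and limma called 205 genes, 149 higher and 56 lower, of which 203 were among the 763. All 763 genes had the same sign without these mice, but the genes had been called with mostly the same mice, so this is no independent check. The call was lost by 72 of the 104 called named genes. Then limma called 0 genes in the lists of NK and cytotoxic, dendritic cell, granule precursor, both interferon, galectin, endoplasmic reticulum stress, proteasome, ribosomal, oxidative phosphorylation and clock genes, which each had 1 or more with all mice. It called 1 each in the immunoglobulin, immediate early, Fc and complement receptor, chemokine receptor and progenitor lists, 2 in the NRF2 list and 4 in the glucocorticoid list. Those that kept it included Ighd (−0.74), H2-Ab1 (−0.70), H2-Oa (−0.62), Gata1 (0.62), Pf4 (0.49), Rgs18 (0.64), Hsph1 (0.85), Fos (0.66) and Irf5 (−0.40). Leaving out single mice, the count of called genes ran from 436 to 1012. It moved by more than 1.5 times without E07 mouse 4 (485), E07 mouse 9 (461), BPR21 mouse 9 (504), BPR21 mouse 11 (436) and BPR21 mouse 12 (450). Of the 104 called named genes, 62 kept the call whichever mouse was left out, and at most 36 lost it, without BPR21 mouse 11. Calls that ended for more than 10 choices of the omitted mouse also included Car2 (12), Urod (16), E2f2 (15), Nfe2 (11), Nt5c3 (16), Ube2c (12), Ccna2 (15), Ncr1 (12), Gzma (17), Ifit2 (13), Cd59a (15), Srxn1 (14), Rpl41 (17), Cox7a2 (14), mt-Atp8 (12) and Jund (17).

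A line through the control and HOCl means over all vst genes, with control at 0 and HOCl at 1, gave each treated mouse a position. BPR21 mice lay at −0.33 at the lowest, 0.57 at the median and 1.82 at the highest, against −0.35, −0.12 and 0.60 in E07 mice. E07 mice gathered near the control end. BPR21 mice spread from that end to beyond the HOCl mean, where mice 11 (1.28) and 12 (1.82) lay. Control mice themselves ran from −0.64 to 0.69 and HOCl mice from 0.20 to 1.87, so mice 11 and 12 lay inside the HOCl range. The means of BPR21 and E07 mice differed by 0.62 (two-sided permutation test, p = 0.00264), and 11 of 12 BPR21 mice lay above the E07 median. Without mice 11 and 12 the difference was 0.44 (p = 0.0103). Without the genes of the red cell lists it was 0.63 (p = 0.00255).

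**Figure D4:**
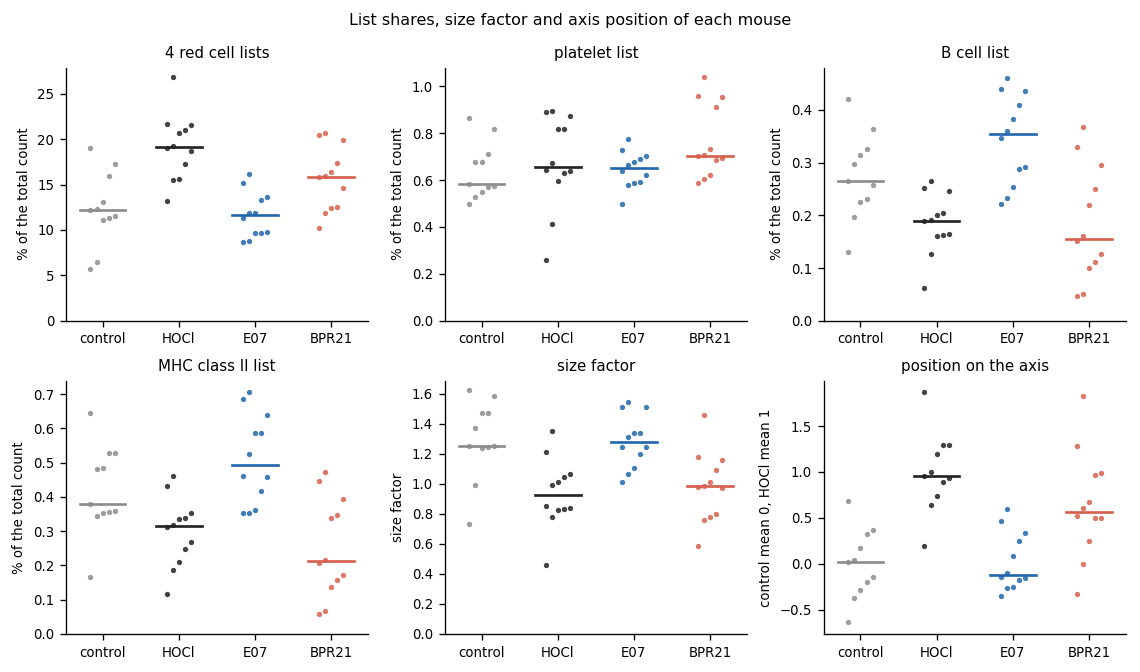
Each point is a mouse of the control, HOCl, E07 or BPR21 group and the bar is the median, for the share of the total count held by the 4 red cell, platelet, B cell and MHC class II lists (%), for the size factor, and for the position on the control-to-HOCl line. BPR21 mice have lower B cell shares (median 0.155% against 0.353%) and MHC class II shares (0.211% against 0.493%) than E07 mice, lower size factors (0.982 against 1.28) and higher positions (0.57 against −0.12).

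Side by side, the groups stood differently to the references, in comparisons that share mice with the one above. E07 against HOCl mice gave 829 called genes (7.89%), 92 higher and 737 lower, and with edgeR 1173, 338 higher and 835 lower. BPR21 against HOCl mice gave 67 (0.638%), 25 higher and 42 lower. E07 against control mice gave 1 (0.00952%; 799 at an unadjusted p under 0.05, and 1 by edgeR), the immunoglobulin gene Ighg1 (0.67) (BPR21 minus E07: −0.30, adjusted p = 0.103), named after its value was seen. BPR21 against control mice gave 53 (0.504%), 16 higher and 37 lower. The counts depended on tool and scale: BPR21 against HOCl gave 90 with edgeR (50 higher, 40 lower) but 0 with limma on CPM of the total count (867 at an unadjusted p under 0.05), and BPR21 against control gave 187 with edgeR (117 higher, 70 lower) and 678 on CPM. In both the larger direction was thus the lower one with limma and the higher one with edgeR. For reticulocyte maturation genes the median was −1.12 in E07 and −0.41 in BPR21 mice relative to HOCl mice, and for red cell membrane genes −1.32 and −0.52. Platelet medians relative to HOCl mice were −0.50 in E07 and 0.10 in BPR21 mice, and heat shock medians −0.11 and 0.26. Those of B cell genes were 0.41 and −0.22, and those of MHC class II genes 0.34 and −0.36. Slc4a1 stood at −2.03 in E07 mice (adjusted p = 0.000115) and at −0.92 in BPR21 mice (adjusted p = 0.227), each relative to HOCl mice. H2-Ab1 stood at 0.37 (adjusted p = 0.0194) and −0.56 (adjusted p = 0.259), and Hsph1 at −0.11 (adjusted p = 0.424) and 0.88 (adjusted p = 0.0825). The monocyte gene Cx3cr1 was lower in BPR21 than in HOCl mice (−0.87, adjusted p = 0.00808) and stood at −0.36 in E07 mice (adjusted p = 0.0733), while Il7r was higher in BPR21 than in HOCl mice (0.55, adjusted p = 0.0106) and stood at 0.09 in E07 mice (adjusted p = 0.606). Relative to control mice, BPR21 medians were 0.72 for reticulocyte maturation, 0.51 for platelet, −0.30 for B cell and −0.47 for MHC class II genes, against −0.02, −0.04, 0.25 and 0.31 in E07 mice.

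Genes outside the vst table, most of them not coding for proteins, were tested on the counts with edgeR. Of 2677 genes 167 were called (6.24%), 153 higher (5.72%) and 14 lower (0.523%) in BPR21 mice, and 490 had an unadjusted p under 0.05. Processed pseudogenes gave 54 of 425, lncRNAs 52 of 633 and protein-coding genes 27 of 1256. Cxcl3, a neutrophil chemokine (chr5:90933962-90937459), had 5 counts at the lowest, 20.5 at the median and 284 at the highest in BPR21 mice, against 0, 9 and 27 in E07 mice. A few BPR21 mice carried the high values, and the log2 fold change was 2.45 (edgeR adjusted p = 0.0186). Oaz1-ps, a pseudogene of ornithine decarboxylase antizyme (chr17:17565718-17566402), had 1261, 5098 and 11913 counts in BPR21 mice and 921, 1331.5 and 3582 in E07 mice. The BPR21 median exceeded the highest E07 value (1.95, edgeR adjusted p = 0.00911), but its reads may come from Oaz1. The other largest increases were those of Apol10c-ps (2.32), Gm7334 (1.96) and Gm16437 (1.94), pseudogenes with the same limit. The largest decreases were those of Igsf9 (−1.93), Gm13226 (−1.78), Gm42940 (−1.67), Mkx (−1.59) and C330011M18Rik (−1.56), all of low abundance. Igsf9 had 0, 1.5 and 22 counts in BPR21 mice and 10, 24 and 35 in E07 mice, so its values were near the limit of detection in most BPR21 mice.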

How the data were processed

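RNA of terminal whole blood was sequenced in 71 mice (control 11 and 12 in each other group), and the members were taken from the group names of the columns, of which 0 lacked a sample. The counts were deposited by the authors as reads per gene (adapters trimmed with cutadapt, alignment to mm39 with STAR, counting with featureCounts). The log2-like values were deposited by the authors as the variance-stabilising transformation (vst) of DESeq2, for 10508 genes and 70 mice. Of these genes 10501 were joined to the count table of 55416 genes by symbol, 2 by annotation name and 5 not at all. Depth was 12241849 to 14933401 counts per mouse in the compared groups.

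Genes were compared with limma 3.58.1 on vst values (R 4.3.3), with edgeR 4.0.16 and DESeq2 1.42.0 on the counts as alternatives, and edgeR was used for genes outside the vst table that pass its expression filter. Values per mouse were compared with 100000 two-sided permutations. Alternatives changed the tool, scaling, filter, threshold, variance model, groups in the fit, covariates and mice. A B cell covariate and the omission of BPR21 mice 11 and 12 together were added after the data were seen. The code was tested on simulated data, and figures and tables were made with Python 3.11.15, numpy 2.4.6, pandas 2.3.3 and matplotlib 3.10.9.

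Genes were named by rule: the 12 largest increases and 12 largest decreases among called genes, Lgals3, 2 to 4 members of each gene list, and 5 genes per direction outside the vst table. Cirbp, Cd69, Rbm3, Ighg1 and a few further list members were named after their values were seen. Of the genes named by rule 5 are not reported here. There were 42 gene lists, 41 with members in the vst table. Members and lists were chosen with earlier results of these data known.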

Additional observations from a re-analysis of the deposited data

How the results depend on the processing

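Counts of called genes depended on tool, scaling and mice, and the cause was not tested. Against 763 called genes (598 higher, 165 lower in BPR21 mice), edgeR gave 1092 (823, 269), edgeR with its filter 1110 (853, 257), edgeR on all filtered genes 1218 (942, 276), DESeq2 1297 (998, 299), CPM of the total count 4813 (152, 4661), CPM with TMM factors 853 (541, 312), the false discovery rate alone 1190 (781, 409) and a 1.5-fold threshold 350 (313, 37). Centred vst values gave 781, a count filter 776, trend and robust variances 693, all 6 groups in the fit 702 and 4 groups 756. With the red cell score, the log2 size factor or the B cell score (chosen after seeing the data) as a covariate, limma gave 0 calls, 0 higher and 0 lower, with 938, 630 and 860 genes at p below 0.05. Without BPR21 mice 11 and 12 together, also chosen after seeing the data, 205 were called (149, 56).

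Leaving out single mice gave 436 to 1012 calls, 325 to 788 higher and 109 to 224 lower, and an axis difference of 0.52 to 0.71. Counts of higher genes moved by over 1.5 times without E07 mouse 4 (361), 8 (396), 9 (340) and 10 (380) and BPR21 mouse 9 (374), 11 (325) and 12 (341), and lower genes without BPR21 mouse 12 (109).

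With the log2 size factor as a covariate genes that changed sign included Slc4a1 −0.00753, Car2 −0.00784, Epb42 −0.0084, Urod −0.0962, E2f2 −0.0526, Bnip3l −0.0416, Nt5c3 −0.114, Ube2c −0.0653, Ccna2 −0.0186, Cd59a −0.0747, Ppp1r15a −0.00955, Rpl41 −0.0859, Cox6c −0.00867, Cox7a2 −0.0244, Atp5mpl −0.0289 and Jund −0.0154. With the red cell score Urod was at −0.0486, E2f2 at −0.0165 and Nt5c3 at −0.0209. Of 143 named genes 38 were weaker and 9 stronger on CPM of the total count, 5 weaker and 10 stronger with edgeR, and 101, 87 and 104 weaker with the red cell, size factor and B cell covariates.

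E07 against HOCl gave 6885 calls on CPM. BPR21 against HOCl gave 0 on CPM with limma (867 at p below 0.05; 67 on vst, 90 with edgeR). BPR21 against control gave 187 with edgeR and 678 on CPM. Outside the vst table DESeq2 called 251 genes, 28 of them lower.

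The labels number the mice, and mice of the same number share nothing known. With the number as a block 773 genes were called (627, 146). Correlations of the 12 pairs ran from −0.239 to 0.277, with 3 over 0.1 and 0 mice closest to their own number, so the numbers give no pairing.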
